A study of Mus musculus with 18 samples.

Results

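Zscan4c, Zscan4d, Zscan4f, Tcstv1 and Tcstv3 are 5 of the 55487 genes in the count table, and all were found by symbol. The names alone picked them from the table, and an assignment of EB libraries selected on their Nfkbia level was not used. The genes mark the 2-cell-like state, a rare and reversible state that a few mESCs in a culture enter at any time. In it the cells transcribe genes that the embryo switches on at its first genome activation, at the 2-cell stage. Zscan4 genes encode proteins with a SCAN domain and zinc fingers, are known for the lengthening of telomeres in mESCs and are used as the main marker of this state. Tcstv genes, named as a variable group of the 2-cell stage, sit in a cluster of their own and are transcribed in the same cells. Upstream of both lies DUX, a homeobox factor encoded by Duxf3, with DPPA2 and DPPA4 as its inducers and many chromatin repressors that hold the state back.

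RNA was sequenced from ES-E14TG2a mESCs, an established mouse line, grown with serum and LIF, and from embryoid bodies (EBs), aggregates in which these cells differentiate, taken at 48 and 96 hr. IκBα-KO mESCs carry CRISPR/Cas9 edits made with 2 guides to the first coding region of Nfkbia, the gene of the NF-κB inhibitor IκBα, and IκBα-WT mESCs are the controls of the same line. The 18 libraries comprise 3 IκBα-WT and 3 IκBα-KO clones of mESCs, 6 libraries of EBs 48 hr and 6 of EBs 96 hr. By the labels the EBs at each time are 3 IκBα-WT and 3 IκBα-KO samples, but the EB columns carry clone codes that the sources used here do not pair with a genotype. EBs were therefore compared by time only, with genotype left in the spread, and no EB library was assigned a genotype from its Nfkbia level.

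Total counts per library ran from 29423089 to 31091857 in IκBα-WT mESCs, from 34107070 to 40904247 in IκBα-KO mESCs, from 28287582 to 33169091 in EBs 48 hr and from 30570857 to 36340056 in EBs 96 hr. Nfkbia had 1009, 1069 and 767 counts in IκBα-WT clones 1 to 3 and 347, 385 and 372 counts in IκBα-KO clones 1 to 3, a log2 fold change of -1.67 (SE 0.14, adjusted p = 0.00489 in edgeR's quasi-likelihood test). Levels are given as CPM, the count of a gene relative to the TMM-scaled total of its library, with all 18 libraries scaled together. A gene was called changed when its log2 fold change was over 1 in either direction and its p, adjusted over every gene tested, was under 0.05. The mESC identity of the cultures shows in markers such as Zfp42, at 718 ± 36.4 CPM in IκBα-WT clones. The genes were chosen with earlier results of these data known, so their p-values are not independent evidence.

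The 3 Zscan4 genes lie in 1 cluster on chromosome 7 of GRCm38. Zscan4c (ENSMUSG00000054272) runs from 11005745 to 11010547 on the plus strand with 4 exons, Zscan4d (ENSMUSG00000090714) from 11161374 to 11166159 on the minus strand with 4 exons, and Zscan4f (ENSMUSG00000070828) from 11397915 to 11402318 on the plus strand with 5 exons. Both Tcstv genes lie on chromosome 13. Tcstv1 (ENSMUSG00000096284) runs from 119893388 to 119894785 on the minus strand in 1 exon, and Tcstv3 (ENSMUSG00000095821) from 120316878 to 120318178 on the plus strand in 2 exons. All 5 are annotated as protein coding, and none of their exons overlaps another gene.

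Promoter sequences from RefSeq (GRCm38.p6) were found for the 3 Zscan4 genes and are shown because the fold changes of the 3 genes lay close together in each comparison that follows. Each stretch of 150 bases is written 5′ to 3′ along its gene. It ends 44 bases before the first base of the gene for Zscan4c and Zscan4d and 21 bases before that of Zscan4f. On the minus strand the first base of Zscan4d is the higher of its coordinates, 11166159. Capitals mark TGATTCAA, the first letters of the sequence known to be bound by DUX, and TATAAAA, the letters of a core promoter box. The stretches cover chr7:11005551-11005700 on the plus strand for Zscan4c, chr7:11166204-11166353 on the minus strand for Zscan4d and chr7:11397744-11397893 on the plus strand for Zscan4f.
Zscan4c: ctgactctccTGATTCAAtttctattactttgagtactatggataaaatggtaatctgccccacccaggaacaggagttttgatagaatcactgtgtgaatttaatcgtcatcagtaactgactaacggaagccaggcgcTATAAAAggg
Zscan4d: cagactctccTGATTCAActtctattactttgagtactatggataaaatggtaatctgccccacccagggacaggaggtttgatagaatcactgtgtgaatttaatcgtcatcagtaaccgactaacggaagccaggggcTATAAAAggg
Zscan4f: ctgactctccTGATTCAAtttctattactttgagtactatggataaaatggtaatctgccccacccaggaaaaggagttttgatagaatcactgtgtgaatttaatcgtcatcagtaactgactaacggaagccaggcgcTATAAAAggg

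The stretches of Zscan4c and Zscan4f differed at 1 base (99.3% identity), those of Zscan4c and Zscan4d at 6 (96.0%) and those of Zscan4d and Zscan4f at 7 (95.3%). Searched on both strands of all 32851 promoters in the table, TGATTCAA was present in 191 (0.581%) and in 3 of 3 of these genes, and TATAAAA in 5.48% and again in 3 of 3. The full DUX motif, which contains TGATTCAA, was found in 3 promoters of the table (0.00913%) and in 0 of the 3 Zscan4 promoters. TGCACAC, letters known to be bound by ZSCAN4 itself, was found in 4.40% of promoters and in 0 of these 3. The shorter DUX sequence was chosen for the search after the promoters had been read.

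Because only uniquely mapped reads were counted, likeness between copies bears on every level given here. Aligned transcripts of Zscan4c and Zscan4f were 99.6% identical, with 7 mismatches in 1806 bases, and those of Zscan4c and Zscan4d were 97.5% identical, with 57 in 2270. Tcstv1 and Tcstv3 aligned over 640 bases with 36 mismatches (94.4%). Of all stretches of 125 bases, the read length, 87.9% in Zscan4f, 67.3% in Zscan4c and 19.9% in Zscan4d also occurred in a transcript of another gene, against 1.99% in Tcstv1 and 4.27% in Tcstv3. Reads from the shared stretches are missing from the counts or rest on their mate, so the split of reads between Zscan4 copies is uncertain, and most of all for Zscan4f.

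In mESCs of both genotypes the Zscan4 genes were at 4.31 to 15.2 CPM and the Tcstv genes below 3 CPM. Per kilobase of exon the mean level over the 6 mESC libraries was 5.11 ± 1.46 CPM (SD) for Zscan4d, 4.68 ± 1.39 for Zscan4c and 3.69 ± 0.982 for Zscan4f. The 3 genes varied together over these libraries, so the SD does not measure the difference between them, which was not tested. The shared stretches, most frequent in Zscan4f and least in Zscan4d, also bear on this order. Tcstv3 followed at 1.11 ± 0.777 CPM per kilobase and Tcstv1 at 0.0344 ± 0.0397. In the libraries of bulk mESCs and EBs alike, more cells in the 2-cell-like state and more RNA in each of them cannot be told apart.

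Loss of IκBα in mESCs changed none of the 5 genes by the test. For the genes other than Tcstv1 the 3 KO clones lay further apart than the 3 WT clones, a difference that was not tested. Zscan4c was at 12.2, 12.8 and 11.5 CPM in IκBα-WT clones 1 to 3, and at 5.55, 13.8 and 8.07 CPM in IκBα-KO clones 1 to 3. Zscan4d was at 13.4, 13.5 and 12.0 CPM in the WT clones, and at 6.05, 15.2 and 9.51 CPM in the KO clones. Zscan4f was at 8.47, 7.98 and 8.19 CPM in the WT clones, and at 4.31, 9.05 and 5.31 CPM in the KO clones. For all 3 genes KO clones 1 and 3 were below every WT clone and KO clone 2 was above every WT clone, so the genotypes overlapped.

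In KO over WT clones the log2 fold change was -0.41 (SE 0.28, adjusted p = 0.438) for Zscan4c, -0.34 (SE 0.28, adjusted p = 0.535) for Zscan4d and -0.40 (SE 0.25, adjusted p = 0.398) for Zscan4f in edgeR's quasi-likelihood test. KO clone 2 decided these values. Without it the log2 fold changes were -0.83, -0.72 and -0.76, and the adjusted p were 0.00327, 0.0136 and 0.00354 by that test, still short of the fold threshold. Without KO clone 1 they were -0.16, -0.075 and -0.20. Tcstv3, the more abundant Tcstv gene, was at 0.576, 0.624 and 0.660 CPM in the WT clones and at 0.470, 2.08 and 0.790 CPM in the KO clones. KO clone 2 again stood highest, but KO clone 3 was above and not below the WT clones. Its log2 fold change was 0.85 (SE 0.51, adjusted p = 0.381 in edgeR's test), and 0.038 without KO clone 2.

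Tcstv1 had 2, 3 and 0 counts in the WT clones and 0, 5 and 0 counts in the KO clones. Of these libraries 5 of 6 were at or under 3 counts, the limit that a count of 0 allows, which is 0.0736 to 0.102 CPM per library, so no fold was taken between the genotypes (adjusted p = 0.921 in edgeR's test). In all, edgeR called 0 of the 5 genes, against 1.70% of the 21843 genes tested in this comparison. An unadjusted p under 0.05 with edgeR was found for 0 of the 5, against 21.6% of all genes tested. DESeq2 called 0 of the 4 to which it gave an adjusted p, and 572 of all genes. The clones of the genotypes did not overlap for 0 of the 5 genes, against 29.0% of all genes tested.

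For the 4 genes other than Tcstv1, which had too few counts, the spread between clones was larger in IκBα-KO than in IκBα-WT mESCs. Their coefficient of variation of the CPM over the WT clones lay between 3.04% for Zscan4f and 6.80% for Tcstv3, and over the KO clones between 40.1% for Zscan4f and 76.7% for Tcstv3. This difference in spread was not tested, and the share of all genes with a larger spread in KO clones was not taken. Over genes with a mean log2 CPM above 1, each library's median correlation with the other mESC libraries was 0.9735 to 0.9813 for KO clones. For WT clones it was 0.9717 to 0.9843. Summed over 9 Zscan4 copies, the level was 78.9, 80.0 and 75.2 CPM in the WT clones and 38.1, 81.9 and 53.9 CPM in the KO clones, with KO clone 1 the lowest and KO clone 2 the highest of the 6. Among the neighbours of Zscan4d on chromosome 7, 48 genes within 5 Mb, the median difference from the WT mean was -0.064, -0.090 and -0.068 in log2 CPM in KO clones 1 to 3, against -1.09, 0.24 and -0.44 for Zscan4d itself. The 8 neighbours of Tcstv3 on chromosome 13, genes of its own cluster left out, had medians of -0.031, -0.089 and -0.036, against -0.36, 1.66 and 0.32 for Tcstv3.

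**Figure D1:**
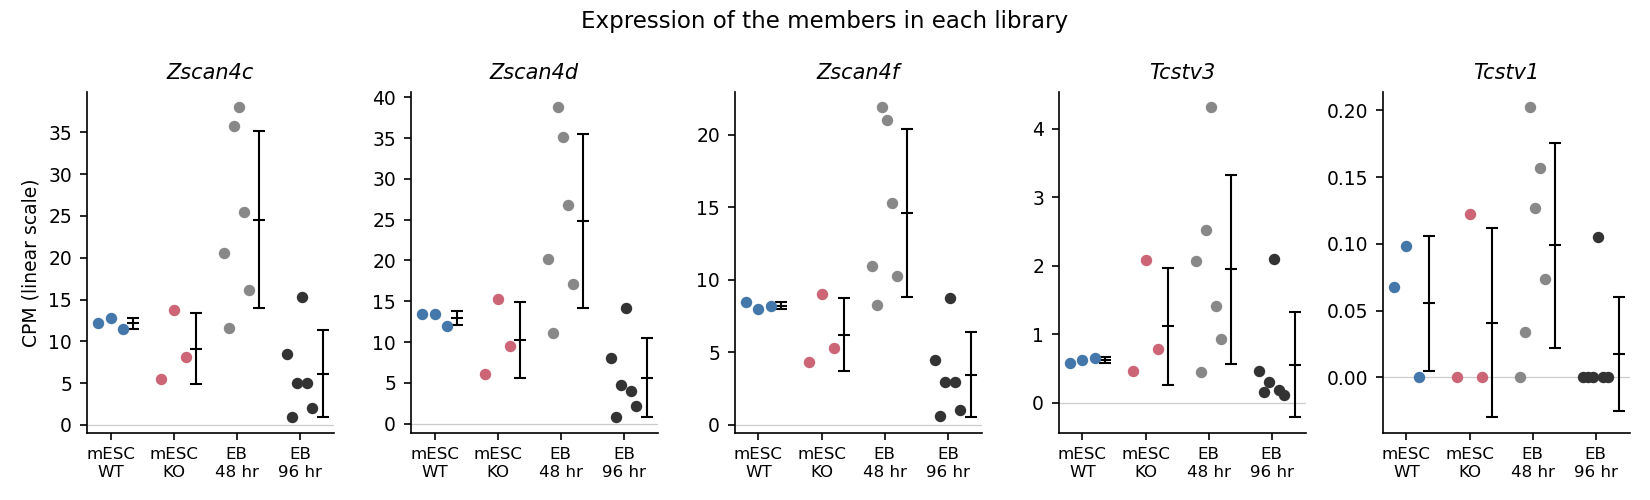
Level of each gene in CPM (linear scale) in every library, 1 point per library, for IκBα-WT mESCs, IκBα-KO mESCs, EBs 48 hr and EBs 96 hr, with the mean and SD beside the points. For the Zscan4 genes the WT clones lie close together, KO clone 2 lies above them and KO clones 1 and 3 below them, the EBs 48 hr reach the highest values, and 1 library of EBs 96 hr stands above the other 5.

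Most other genes of the 2-cell-like state were also below the WT clones in KO clone 1 and above them in KO clone 2. Of 25 other 2-cell genes that averaged 20 counts or more, 22 were below every WT clone in KO clone 1, 18 were above every WT clone in KO clone 2 and 14 were below every WT clone in KO clone 3. Over all 15177 genes at that level, 34.5% were below every WT clone in KO clone 1, 40.6% were above in KO clone 2 and 37.8% were below in KO clone 3. The median difference of the 25 genes from the WT mean was -0.75, 0.76 and -0.24 in log2 CPM in KO clones 1 to 3. The other Zscan4 copies and the Tcstv cluster parted in KO clone 2. The 6 other Zscan4 copies had a median difference of -0.060 there, with 1 above and 3 below every WT clone. In KO clones 1 and 3 all 6 were below every WT clone. For 4 other genes of the Tcstv cluster the median in KO clone 2 was 1.14, with all 4 above every WT clone. None of 6 other Zscan4 copies, 5 other genes of the Tcstv cluster and 30 other 2-cell genes tested was called between the genotypes, with medians of -0.55, 0.32 and 0.052 against 0.015 over all genes. At an unadjusted p under 0.05 edgeR counted 2, 1 and 1 of them, beside 21.6% of all genes. The clones of the genotypes did not overlap for 3, 0 and 1 of them, against 29.0% of all genes tested.

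The regulators of the state were not called between the genotypes either. Duxf3 counts were 1 to 4 per WT clone and 5 to 9 per KO clone, with a log2 fold change of 1.09 (SE 0.59, adjusted p = 0.333 in edgeR's test). Dppa2 was at 147 ± 6.65 CPM in the WT clones and 152 ± 33.5 CPM in the KO clones (SD, n = 3 each). Of 10 inducers and 33 repressors of the state, 0 were called, and of 14 telomere maintenance genes tested 0 were called. An unadjusted p under 0.05 with edgeR was found for 3 of 10, 7 of 33 and 7 of 14, beside 21.6% of all genes. At any fold 0, 3 and 2 of them had an adjusted p under 0.05, as did 1046 of the 21843 genes tested. The clones of the genotypes did not overlap for 5, 12 and 10 of them, against 29.0% of all genes tested.

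Markers of primitive endoderm, the extraembryonic lineage that mESC cultures can also form, ran opposite to the Zscan4 genes over the KO clones. All 10 were above every WT clone in KO clones 1 and 3, against 36.8% and 35.3% of 15177 genes. The median difference from the WT mean there was 2.53 and 3.12 in log2 CPM. In KO clone 2 it was 0.066, with 2 of the 10 above and 2 below every WT clone, against 40.6% and 38.7% of genes. The fitted log2 fold changes of the 10 markers ranged from 1.07 to 3.40. Of the 10, 1 was called, Sparc, a secreted matrix protein, against 1.70% of all genes. With edgeR 8 of the 10 had an unadjusted p under 0.05, beside 21.6% of all genes. Gata6, the transcription factor of this lineage, was at 0.697 ± 0.143 CPM in the WT clones and ranged from 0.662 to 10.4 CPM in the KO clones. For 12 naïve and core pluripotency markers these medians were 0.17, 0.12 and 0.039 in KO clones 1 to 3. Among markers of other lineages, 0 of 9 trophoblast genes tested were called and 1 of 6 fibroblast genes, Col3a1, was called lower. Of 15 early differentiation markers 3 were called, against 1.70% of all genes. Fgf5 (log2 fold change -4.44) and Pou3f1 (-2.07) were lower and Sox1 (1.45) was higher. With edgeR 8 of the 15 had an unadjusted p under 0.05, beside 21.6% of all genes. The part of cells of these lineages in the differences of the Zscan4 genes was not tested.

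In EBs 48 hr the 5 genes were higher on average than in mESCs but, at the spread between libraries, none was called. Zscan4c ranged from 11.6 to 38.0 CPM over the 6 libraries of EBs 48 hr with a median of 23.0, against 5.55 to 13.8 CPM with a median of 11.8 over the 6 mESC libraries. Zscan4d ranged from 11.1 to 38.7 CPM with a median of 23.5, against 6.05 to 15.2 CPM with a median of 12.7. Zscan4f ranged from 8.27 to 21.9 CPM with a median of 13.1, against 4.31 to 9.05 CPM with a median of 8.08. For each of these genes 5 of the 6 libraries of EBs 48 hr were above every mESC library.

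The log2 fold change of EBs 48 hr over mESCs was 1.21 (SE 0.47, adjusted p = 0.0654) for Zscan4c, 1.10 (SE 0.47, adjusted p = 0.0925) for Zscan4d and 1.02 (SE 0.45, adjusted p = 0.102) for Zscan4f in edgeR's test over 25318 genes. Zscan4c passed the threshold in DESeq2 (adjusted p = 0.0374), and with edgeR when the lowest library of EBs 48 hr was left out (adjusted p = 0.0483). Leaving out the lowest library of EBs 96 hr from the shared fit passed Zscan4c and Zscan4d (adjusted p = 0.0292 and 0.0426 with edgeR), and leaving out the highest one passed Zscan4c, Zscan4d and Zscan4f (0.0334, 0.0499 and 0.0486). In 15, 16 and 17 of 18 fits with 1 library left out these genes did not pass, with edgeR's adjusted p up to 0.137, 0.184 and 0.197. With WT clones as the only mESCs edgeR's adjusted p were 0.306, 0.348 and 0.389. With KO clones alone they were 0.154, 0.203 and 0.195. Tcstv3 ranged from 0.445 to 4.31 CPM with a median of 1.74 in EBs 48 hr, against 0.470 to 2.08 CPM with a median of 0.642 in mESCs, and 2 of 6 EB libraries were above every mESC library. Its log2 fold change was 1.16 (SE 0.64, adjusted p = 0.199 with edgeR). Tcstv1 had 0 to 6 counts per library in EBs 48 hr, 18 in all, against 10 in all over the 6 mESC libraries (adjusted p = 0.469 with edgeR). Calls upward were thus 0 of 5, against 4.62% of all genes tested (4.95% were called lower), with 3 of the 5 at an unadjusted p under 0.05, as were 38.2% of all genes, and DESeq2 called 1, Zscan4c.

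Close relatives of the 5 genes did pass in this interval. Of the 6 other Zscan4 copies, 3 rose, namely Zscan4b, Zscan4-ps1 and Zscan4-ps3. Zscan4-ps1 rose by 1.51 (SE 0.46, adjusted p = 0.0184) and Zscan4b by 1.18 (SE 0.38, adjusted p = 0.0268) on the log2 scale with edgeR. The other 3 copies had log2 fold changes of at least 1.05 without passing. Of 5 other genes of the Tcstv cluster, AF067061 rose by 1.93 (SE 0.68, adjusted p = 0.0416), and of 32 other 2-cell genes tested 11 rose and 0 fell, among them Tmem92 (log2 fold change 1.80) and Gm12794 (1.67). Gm4340, a 2-cell gene on chromosome 10 with near-identical copies, had 11 counts in all over the mESC libraries and 135 in EBs 48 hr, a log2 fold change of 3.67 (SE 0.64, adjusted p = 0.000257 with edgeR). The medians of the 3 lists were 1.21, 1.47 and 1.50, against 0.0043 over all genes.

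Duxf3 rose in the same interval, from 0.123 ± 0.0656 CPM in mESCs to 0.515 ± 0.261 CPM in EBs 48 hr (SD, n = 6 each), a log2 fold change of 2.01 (SE 0.46, adjusted p = 0.00297 with edgeR). These are low levels, of 1 to 9 counts per mESC library and 4 to 26 per library of EBs 48 hr. Dppa2 was at 150 ± 21.8 CPM in mESCs and 165 ± 32.8 CPM in EBs 48 hr and was not called. Among 33 repressors of the state 1 was called, Zfp42, itself a naïve pluripotency gene, which fell by 1.93 (SE 0.54, adjusted p = 0.0112). Of 12 naïve and core pluripotency markers 7 fell in this interval, including Klf4 by 3.93 (SE 0.32, adjusted p = 1.15e-07 with edgeR) and Nanog by 1.78 (SE 0.26, adjusted p = 4.49e-05).

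From 48 to 96 hr the Zscan4 genes fell by about 2 on the log2 scale, and Tcstv3 passed the test at its edge when libraries were fitted as independent. Zscan4c ranged from 0.918 to 15.3 CPM in EBs 96 hr with a median of 5.01, and its log2 fold change from EBs 48 hr was -2.00 (SE 0.49, adjusted p = 0.00598). Zscan4d ranged from 0.786 to 14.1 CPM with a median of 4.34 and changed by -2.14 (SE 0.49, adjusted p = 0.00400). Zscan4f ranged from 0.629 to 8.76 CPM with a median of 2.96 and changed by -2.07 (SE 0.46, adjusted p = 0.00360). For all 3 genes 5 of the 6 libraries of EBs 96 hr were below every library of EBs 48 hr, and the sixth overlapped them. The calls of the 3 genes were kept with each of the 18 libraries left out in turn, with log2 fold changes from -2.66 to -1.73.

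Tcstv3 ranged from 0.120 to 2.10 CPM in EBs 96 hr with a median of 0.248, and 4 of 6 libraries were below every library of EBs 48 hr. Its log2 fold change of -1.79 (SE 0.66, adjusted p = 0.04997 with edgeR) was lost in 14 of 18 fits with 1 library left out, with adjusted p up to 0.131.

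EB libraries of both times carry the same 6 clone codes, so each library of EBs 96 hr could be set beside the one of EBs 48 hr with its code. Zscan4c, Zscan4d, Zscan4f and Tcstv3 were each lower at 96 hr in 6 of 6 such pairs. The share of all genes lower in 6 of 6 pairs was not taken, so this count is a description only. The level at 96 hr over that at 48 hr ranged from 0.0789 to 0.411 for Zscan4c, from 0.0708 to 0.401 for Zscan4d, from 0.0760 to 0.417 for Zscan4f and from 0.121 to 0.487 for Tcstv3. With the clone code as a block over the 12 EB libraries the log2 fold change of Tcstv3 was -2.13 (SE 0.32, adjusted p = 0.00124 with edgeR), and without the block in the same libraries it was -1.77 (adjusted p = 0.0964) and not called. The Zscan4 genes were called either way, at -2.31, -2.45 and -2.37 with the block for Zscan4c, Zscan4d and Zscan4f. Over all genes 3535 were called with the block and 2270 without it, in either direction. This pairing was added after the data had been seen.

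In CPM, Tcstv1 was lower at 96 hr in 5 of these 6 pairs, with 0 counts at both times in the other. In 1 of the 5 the count was 4 at both times, and its CPM (0.127 and 0.105) differed by library scaling only. The rest went to 0 from 1, 2, 5 and 6 counts, of which 1 and 2 lie within the limit that a count of 0 allows. The pairs therefore do not show a consistent fall. Tcstv1 had 4 counts in 1 library of EBs 96 hr and 0 in the other 5 (adjusted p = 0.113 with edgeR). A count of 0 there allows up to 0.0787 to 0.0952 CPM, and its mean in EBs 48 hr was 0.0989 CPM, so a fall was at the limit of what this depth can show. Calls downward were 4 of 5, against 4.76% of all genes tested, and 7.10% were called higher.

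Most related genes fell in this interval. The 6 other Zscan4 copies all fell, with log2 fold changes from -2.15 to -1.93. Of 5 other genes of the Tcstv cluster 4 fell, and BC147527 had a log2 fold change of -1.76 (adjusted p = 0.0597 with edgeR) without passing. Of 32 other 2-cell genes tested, 25 fell and 0 rose, including Usp17lb, of a family of deubiquitinating enzymes, by 2.44 (SE 0.70), Tdpoz4 by 2.34 (SE 0.66) and Zfp352, a zinc finger gene, by 2.20 (SE 0.64). The median over the 32 genes was -1.93, against -0.029 over all genes.

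**Figure D2:**
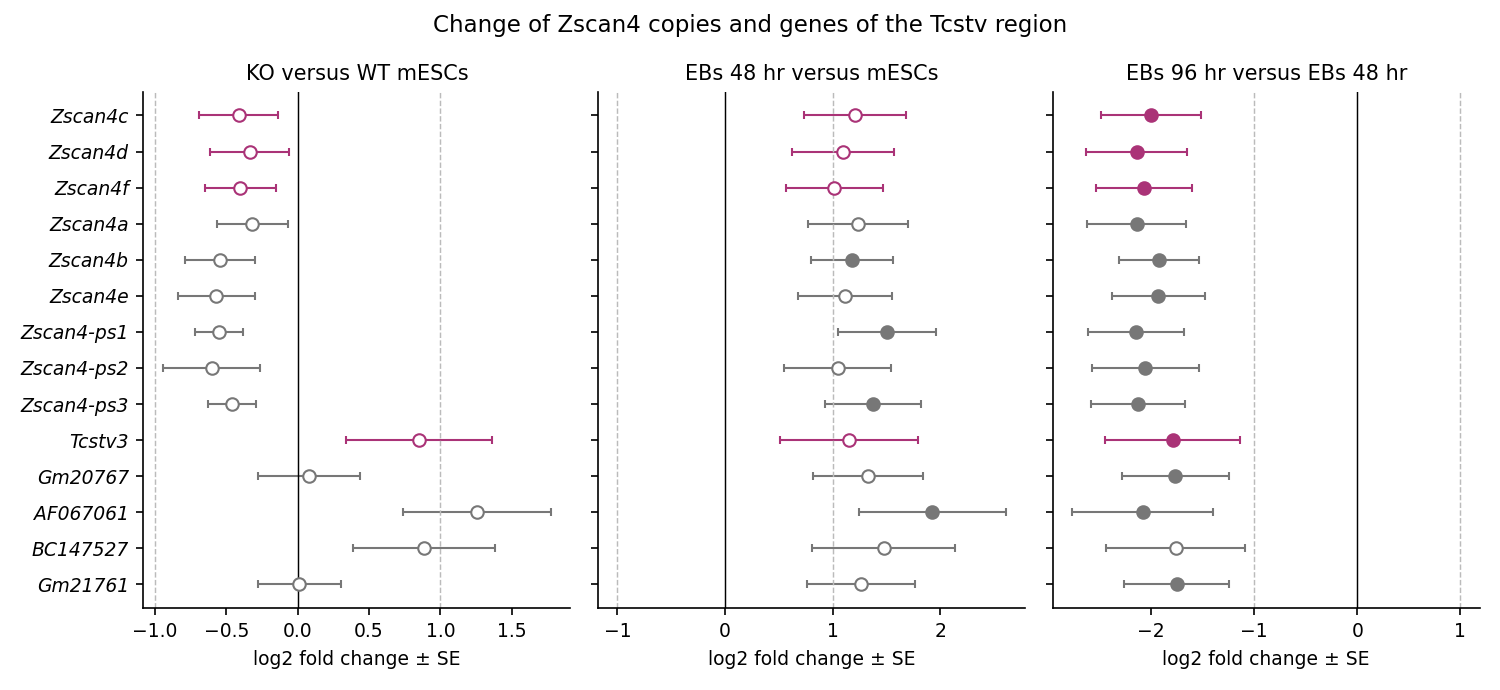
Log2 fold change with its SE for the 3 Zscan4 genes and Tcstv3 (coloured) and for 10 related genes of both clusters (grey) in 3 comparisons, with filled points for calls and dashed lines at a log2 fold change of 1 in either direction. All 13 genes other than BC147527 have filled points below 0 from 48 to 96 hr, and no point is filled between the genotypes.

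Among inducers, Duxf3 returned to 0.139 ± 0.0794 CPM at 96 hr, with a log2 fold change of -1.85 (SE 0.45, adjusted p = 0.00625 with edgeR). Dppa2 fell to 65.9 ± 42.9 CPM, with a log2 fold change of -1.32 (SE 0.34, adjusted p = 0.00902), and Dppa4 had one of -0.94 (SE 0.28, adjusted p = 0.0174), under the fold threshold. Gata2, a GATA factor that also acts in blood formation, rose by 2.07 (SE 0.71, adjusted p = 0.0374). Of 33 repressors 0 were called, while 19 had an adjusted p under 0.05 at any fold, as did 27.7% of all genes, and their median was -0.28. Of 15 early differentiation markers 9 rose, among them the mesoderm genes T (log2 fold change 5.55) and Mixl1 (5.52). Of the 12 pluripotency markers 2 fell, Tfcp2l1 and Dppa3.

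**Figure D3:**
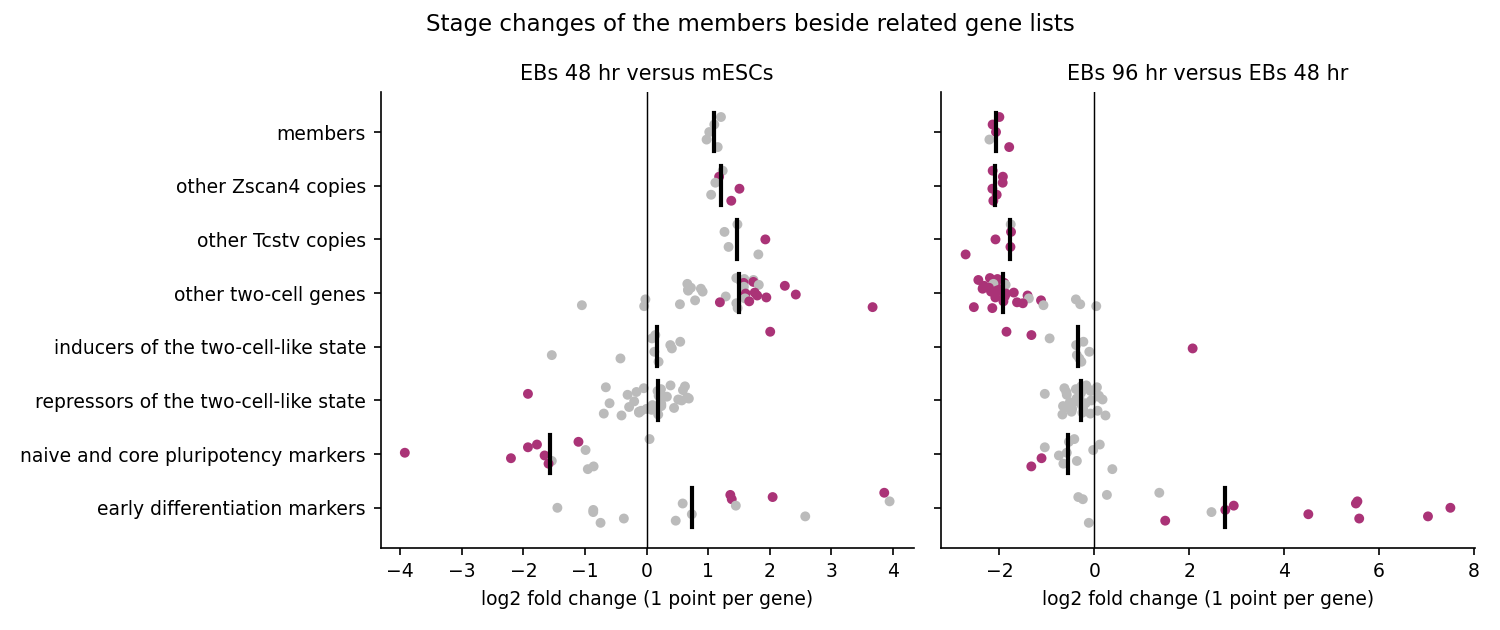
Log2 fold change of every tested gene (1 point each, coloured where called) of 8 lists in both intervals of the time course, with a black bar at each list's median. The 2-cell genes and both clusters lie mostly above 0 from mESCs to EBs 48 hr and below 0 from 48 to 96 hr, while the pluripotency markers have their lower median in the first interval.

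Against mESCs, EBs 96 hr had lower means for all 5 genes but none was called, against 9.65% of all genes called lower and 11.2% called higher. Zscan4c had a log2 fold change of -0.79 (adjusted p = 0.190), Zscan4d of -1.04 (adjusted p = 0.0854), Zscan4f of -1.05 (adjusted p = 0.0693) and Tcstv3 of -0.64 (adjusted p = 0.461) in edgeR's test, and 2 of the 5 had an unadjusted p under 0.05, as did 50.4% of all genes. DESeq2 called Zscan4f alone (adjusted p = 0.0442). For each Zscan4 gene 4 of 6 libraries were below every mESC library. A single library of EBs 96 hr, the highest for each of the 5 genes, decided this comparison. Leaving out the highest library lowers the mean at 96 hr in any case, so the fit shows its weight only. Without this library all 5 genes were called lower. The log2 fold changes were -1.31, -1.56 and -1.58 for Zscan4c, Zscan4d and Zscan4f and -1.81 for Tcstv3. Their adjusted p were 0.0219, 0.00815, 0.00452 and 0.0137 by edgeR's test. Tcstv1 then had 0 counts in all 5 remaining libraries (adjusted p = 0.0448 by the same test). Its call rests on few counts, with 10 in all over the 6 mESC libraries. The 3 time comparisons share libraries and are not independent of each other.

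The spread between libraries widened at 96 hr. The highest library of EBs 96 hr was 16.7 times the lowest for Zscan4c, 17.9 times for Zscan4d, 13.9 times for Zscan4f and 17.5 times for Tcstv3. The SD of log2 CPM over the 6 libraries was 0.43 to 0.50 for the Zscan4 genes in mESCs, 0.57 to 0.68 in EBs 48 hr and 1.34 to 1.43 in EBs 96 hr. The median SD of 15177 genes was 0.21, 0.25 and 0.29 at these times, and 3.78% to 4.67% of genes had a larger SD than the Zscan4 genes at 96 hr. Both genotypes are mixed in the EB groups, so genotype and clone cannot be told apart as parts of this spread.

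The same libraries were extreme for nearly all related genes at 96 hr. The library highest for Zscan4c was also the highest for 6 of 6 other Zscan4 copies and for 25 of 25 other 2-cell genes at that level of counts, against 22.3% of all genes. The library lowest for Zscan4c was the lowest for 6 of 6 and 22 of 25, against 27.0% of all genes. In the highest library the 15 early differentiation markers had a median deviation of -2.25 in log2 CPM from the mean of EBs 96 hr and the 12 pluripotency markers one of 0.71. In the lowest library these medians were 2.59 and -1.03. The part of the differentiation reached by each library in the Zscan4 levels was not tested.

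Within stages the 3 Zscan4 genes varied together, Tcstv3 less closely and Tcstv1, at few counts, least. Likeness was Pearson's r over the 18 libraries between log2 CPM minus the mean of the stage and the mean of the same quantity over the 5 genes, given as a description. These points share clones, depth and the degree of differentiation. Pairs of Zscan4 genes had r of 0.98 to 0.99, which shared reads between copies could raise, Zscan4 genes with Tcstv3 0.77 to 0.79, and with Tcstv1 0.57 to 0.58. Over the 6 mESC libraries alone Zscan4 genes with Tcstv3 had r of 0.48 to 0.56. The 10 most similar of 15173 other genes were Gm8994 (r = 0.979), Gm5662 (0.975), Gm4971, Gm20767, Gm21761, Gm8332, Gm12794, Gm5576, Gm16478 and Gm5580 (0.967). Of these, Gm20767 and Gm21761 lie in the Tcstv cluster, and Gm8994, Gm5662 and Gm12794 were among the other 2-cell genes listed. Over all genes the central 90% of r with the mean of the 5 genes ran from -0.77 to 0.77.

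By list, the median r was 0.94 for the 6 other Zscan4 copies and for 4 other genes of the Tcstv cluster, and 0.93 for the 25 other 2-cell genes. It was 0.57 for inducers, 0.18 for repressors and 0.22 for telomere maintenance genes. Single genes ran from -0.32 to 0.84 among inducers, from -0.62 to 0.84 among repressors and from -0.62 to 0.83 among telomere maintenance genes. Dppa2 (0.84) and Dppa4 (0.74) were the highest inducers, but the highest repressor reached the same r as Dppa2. The r of Dppa4 lay inside the central range given above for all genes. Over the mESC libraries alone r was 0.92 for Dppa2 and 0.07 for Dppa4. Pluripotency markers had a median of 0.59 and early differentiation markers one of -0.64.

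**Figure D4:**
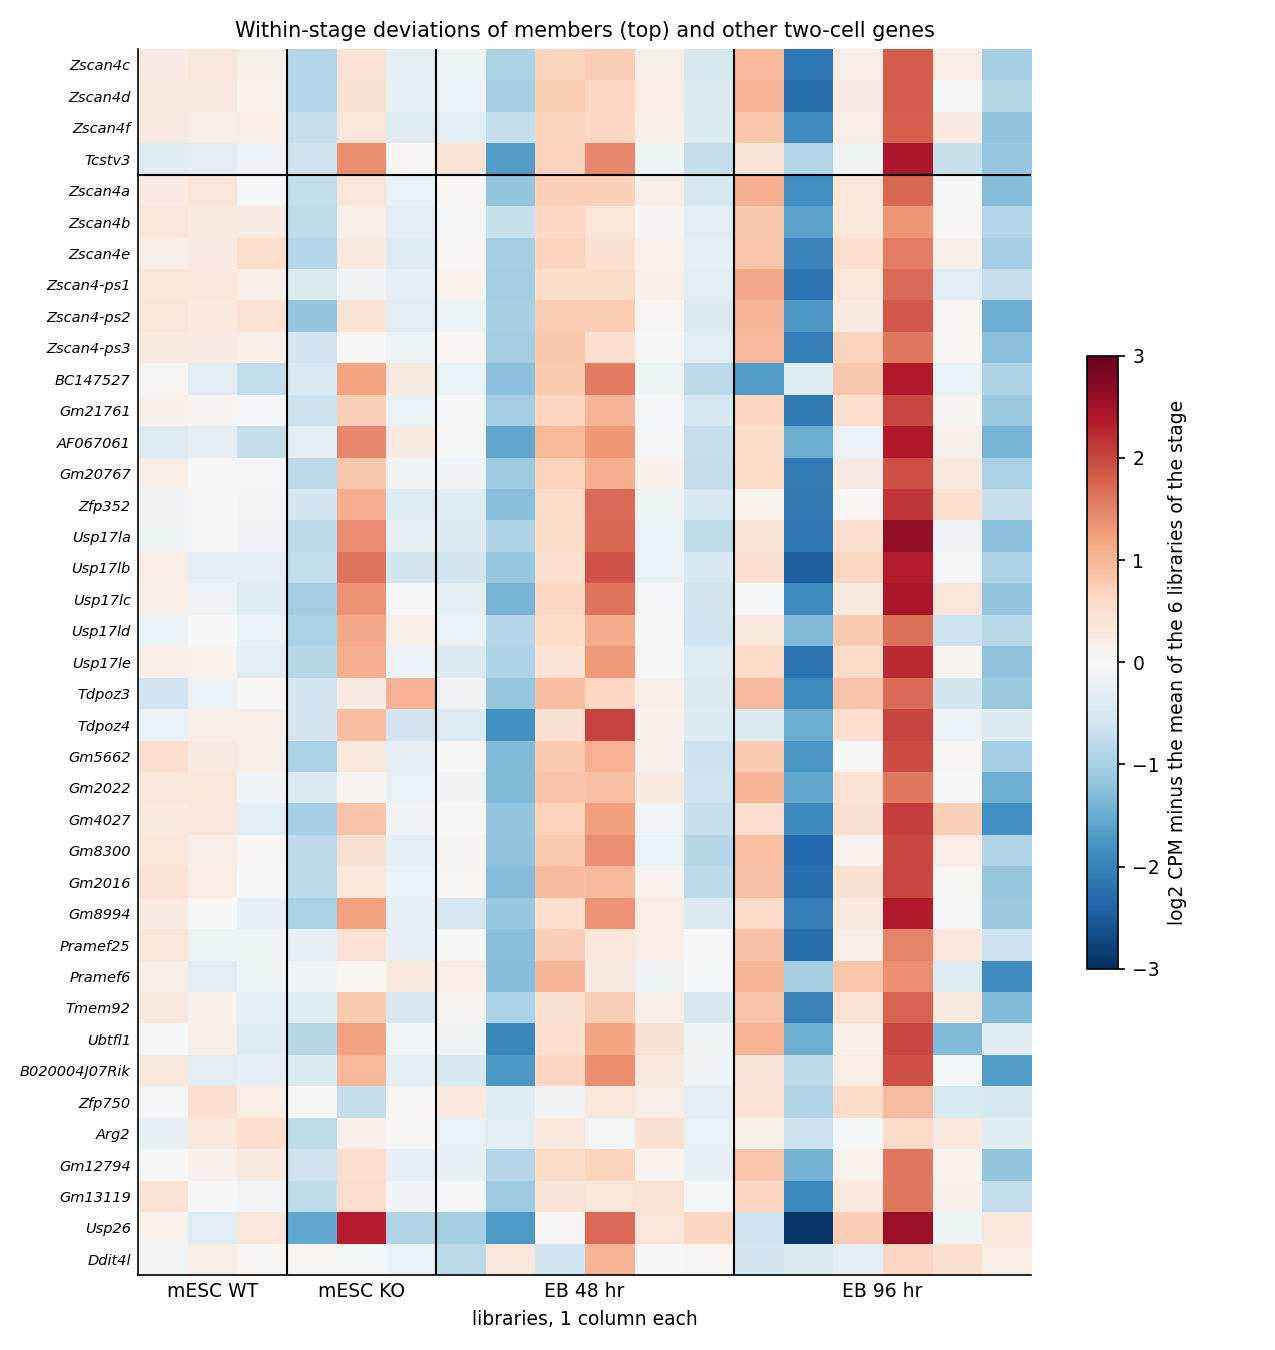
Log2 CPM minus the mean of the 6 libraries of the stage (colour, red above and blue below) for the Zscan4 genes and Tcstv3 (top) and related genes (below) in 18 libraries, 1 column each. KO clone 1 is blue and KO clone 2 mostly red among the mESCs, and in EBs 96 hr 1 column is the most red and another the most blue in nearly every row.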

How the data were processed

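The authors trimmed paired-end reads of 125 bases with Trim Galore 0.6.6, aligned them with STAR 2.7.8 to GRCm38, assigned uniquely mapped reads to exons with featureCounts (Subread 2.0.1) and deposited raw counts. The strand setting is not given in the sources used here. The authors also deposited log2 values from the variance-stabilizing transformation of DESeq2 1.38.3, which were not used. Of 55487 gene IDs 55141 were given a symbol. EB columns were placed by time only.

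In R 4.3.3, edgeR 4.0.16 (TMM, robust quasi-likelihood fit, Benjamini-Hochberg adjustment) compared KO with WT mESCs over 6 libraries and the 3 times in 1 fit of 18 libraries, on genes with at least 10 counts in all. SEs are the absolute log2 fold change over the square root of F, and 2 was the prior count for log2 CPM. The limit set by a count of 0 is 3 counts and covers counting error only. The p-values measure the spread between clones of 1 line, and EB libraries of both times carry the same clone codes but were fitted as independent in the main test. The paper selected 3 clones of each genotype for its experiments, but the mESC columns carry no clone code. Clones shared by mESCs and EBs could therefore not be matched and were fitted as independent too. In the EBs, libraries of 1 code deviated together (correlations 0.396 to 0.734 in 6 of 6 pairs), and a fit of the 12 EB libraries with the code as a block was added after seeing the data. DESeq2 1.42.0, its size factors, other filters, no fold threshold, single mESC genotypes, each mESC clone left out and the replicate number as a block were the alternatives. Leaving out each library of the time course was added after seeing the data. Same-numbered WT and KO clones had correlations of -0.158, 0.000325 and -0.0227 between their deviations from the means of the genotypes, so the replicate numbers do not pair the clones. Counts of any pair of libraries within a group differed by more than sampling noise (lowest chi-square over degrees of freedom 5.47). The methods were tested on simulated data with 200 changed genes.

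The 5 genes and all lists were chosen with earlier results of these data known. Genes named are these 5, Nfkbia, list genes that were called (or the most abundant of a list), and the 10 genes most similar to the 5. BC147527, Gata6 and Dppa4 fall outside this rule and were named after their values were seen. Genes were placed with the Zscan4 or the Tcstv cluster by position, and 3 were moved between lists after values were seen. Of 10 listed genes of the Tcstv cluster 5, and of 38 other 2-cell genes 37, were found by symbol.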

Additional observations from a re-analysis of the deposited data

Results flagged for a closer look

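Samples far from the rest of their group were sought with Dixon's test for each of the 5 genes in the 2 EB groups, 10 groups in all. The usual chance rate of about 1 flag in 20 does not hold here, as the genes vary together and some have counts near 0. In EBs 96 hr the highest library was at 2.10 CPM of Tcstv3, with the next at 0.462 CPM, a gap of 0.827 of the whole range. The same library was the only one of EBs 96 hr with any Tcstv1, at 0.105 CPM, which stands for 4 counts. With all others at 0, its gap was the whole range by construction, so this flag carries no weight.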

How the results depend on the processing

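The direction of each Zscan4 gene and of Tcstv3 was the same under every alternative run in all 4 comparisons, while calls near the threshold were not. Between the genotypes, 372 genes were called, 572 with DESeq2, 1046 with no fold threshold and 261 with the replicate block, in which 0 of the 5 genes were called (log2 fold change of Zscan4c -0.50). With 1 clone left out the lowest number was 0, leaving out WT clone 2, and the highest 872, leaving out KO clone 2, and the fitted value of Tcstv1, at few counts, from -0.88 to 0.22, reversing in 2 of 3 fits. For EBs 48 hr against mESCs, 2422 genes were called, 7053 with no fold threshold and 1520 with WT clones as the only mESCs. Zscan4c passed with DESeq2 (1.20), and with 1 library left out it ran from 1.04 to 1.35, Zscan4d from 0.93 to 1.25 and Zscan4f from 0.87 to 1.14. From 48 to 96 hr, 3003 genes were called and 7019 with no fold threshold. Tcstv3 lost its call with DESeq2 size factors (-1.79), with no low-count filter (-1.75), with WT or KO clones as the only mESCs (-1.77 for both) and with EB libraries alone (-1.77), but not with EB libraries paired by clone code as a block (-2.13), and with 1 library left out it ran from -2.96 to -1.39 and Tcstv1 from -4.76 to -1.90. For EBs 96 hr against mESCs, 5278 genes were called and 10894 with no fold threshold, and Zscan4f passed with DESeq2 (-1.06). With 1 library left out Zscan4c ran from -1.31 to -0.53, Zscan4d from -1.56 to -0.78, Zscan4f from -1.58 to -0.80, Tcstv3 from -1.81 to -0.16 and Tcstv1 from -3.78 to -0.66. Of the 10 most similar genes, 6 were shared with a ranking not centred on the stage and 2 with one over mESCs alone. The block of clone codes changed no call of the Zscan4 genes or Tcstv1, and it called 3535 genes. The cause of these changes was not tested. Tcstv1 gave no value where a filter, a clone left out or DESeq2 removed it. The unknown genotype of EB libraries, the shared stretches of Zscan4 copies and the few counts of Tcstv1 limit what can be read.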
